A study of Mus musculus with 20 samples.

Results

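Choroid plexus macrophages were compared with microglia, the macrophages of the brain tissue itself, by bulk RNA sequencing. The comparison uses 8 of the 20 libraries of a study of mouse brain macrophages, taken by their sample titles: choroid plexus macrophages 1 to 4, labelled as coming from the choroid plexus, and microglia 1, 3, 4 and 5, labelled as coming from the brain. All 8 are total RNA from mice of the inbred strain C57BL/6JRj, with no other genotype or treatment named. The other 12 libraries hold 4 each of dura macrophages with high MHC class II, dura macrophages with low MHC class II and peritoneal macrophages. The sample labels give neither age, sex, sorting gate nor whether the replicates of a group are separate animals, so the p-values measure the spread between these libraries, which may be technical.

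The choroid plexus is a folded, vascularised tissue in the brain ventricles whose epithelium secretes cerebrospinal fluid. Its macrophages lie in the stroma beneath that epithelium and on its ventricular surface, and together with the macrophages of the meninges they are known as border-associated macrophages. Microglia are long-lived cells of embryonic yolk sac origin that depend on signalling through the CSF1 receptor and on TGF-beta, and the transcription factor Sall1 is part of their identity. MHC class II molecules present peptides to CD4 T cells, and microglia of the healthy brain carry little of them.

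The promoters of a pair of class II genes are shown because these genes gave some of the largest differences, and that of the interferon-induced gene Ifit1 because 1 microglia library stood apart in its pathway. The sequences are from RefSeq on GRCm38.p6, from 250 bases before to 50 bases after the gene start, 5′ to 3′ on the strand of the gene. In H2-Aa (chr17:34287774-34288073, minus strand) and H2-Eb1 (chr17:34305617-34305916, plus strand), capitals mark the CCAAT box in either orientation. It was searched as ATTGG, the inverted form, and as CCAAT, the direct form. In Ifit1 (chr19:34640639-34640938, plus strand), capitals mark GAAA, 2 bases of any kind and GAAA again, on either strand, the core of the element bound by interferon-activated factors.
H2-Aa: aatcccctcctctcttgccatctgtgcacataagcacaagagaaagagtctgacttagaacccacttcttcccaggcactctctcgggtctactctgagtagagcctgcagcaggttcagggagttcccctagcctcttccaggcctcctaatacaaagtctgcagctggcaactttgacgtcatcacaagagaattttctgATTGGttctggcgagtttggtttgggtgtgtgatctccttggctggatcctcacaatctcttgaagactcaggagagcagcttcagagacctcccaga
H2-Eb1: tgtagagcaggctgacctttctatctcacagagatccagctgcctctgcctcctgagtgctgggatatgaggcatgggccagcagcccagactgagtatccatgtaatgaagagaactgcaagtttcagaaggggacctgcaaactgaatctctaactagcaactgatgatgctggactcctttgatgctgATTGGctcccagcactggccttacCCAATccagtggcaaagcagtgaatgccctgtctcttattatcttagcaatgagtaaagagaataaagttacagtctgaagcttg
Ifit1: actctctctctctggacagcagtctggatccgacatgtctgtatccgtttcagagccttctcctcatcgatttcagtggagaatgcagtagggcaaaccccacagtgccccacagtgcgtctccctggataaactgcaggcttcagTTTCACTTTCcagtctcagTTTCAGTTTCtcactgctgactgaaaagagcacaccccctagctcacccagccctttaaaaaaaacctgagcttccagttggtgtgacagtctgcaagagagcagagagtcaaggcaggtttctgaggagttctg
The CCAAT match began 48 bases before the start of H2-Aa, and the pair of matches in H2-Eb1 began 59 and 35 bases before its start. The class II list of 11 genes had 8 promoters in the RefSeq table. ATTGG or CCAAT was in 7 of these, or 87.5%, against 37.9% of all 27025 promoters of the same length. The matches in Ifit1 began 104 and 85 bases before its start. This spaced GAAA pair was in 8 of 14 promoters of the interferon list, or 57.1%, against 3.5% of all promoters. These matches describe the letters only.

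Gene counts per library came to 13383274 to 16052955 in choroid plexus macrophages and 15312617 to 17156227 in microglia. Levels are given as CPM, the counts scaled to 1000000 per library after adjustment by TMM factors, with replicates in the order 1, 2, 3, 4 for choroid plexus macrophages and 1, 3, 4, 5 for microglia. Means are followed by the SD, with n = 4 in each group. A log2 fold change is positive where choroid plexus macrophages were higher, and is followed by its approximate standard error. A gene was called higher or lower at a Benjamini-Hochberg adjusted p below 0.05 in edgeR's quasi-likelihood test and at least a 2-fold change. In bulk RNA, fewer cells of a type and less RNA per cell cannot be told apart.

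Some libraries stood apart. Microglia 3 held transcripts of choroid plexus epithelium: the summed level of 17 epithelial genes was 8042, 5281, 5925 and 4250.1 CPM in choroid plexus macrophages, against 73.2, 21889, 757 and 354 CPM in microglia. Microglia 3 was thus above every choroid plexus library, and the other microglia were below them all. In the 8 dura libraries the same sum was 22.7 to 53.5 CPM. Microglia 5 stood apart in interferon-induced genes, and choroid plexus macrophages 4 in fibroblast genes. Choroid plexus macrophages 2 and 3 had higher summed immediate early and heat shock genes than 1 and 4. Counts over lists of genes are given for all libraries, and again without microglia 3 where that changed them. Each is to be set against the share of all tested genes, 12.1% higher and 7.11% lower, or 16.1% and 7.69% without microglia 3. Values without the other libraries stand beside the lists they touch.

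**Figure D1:**
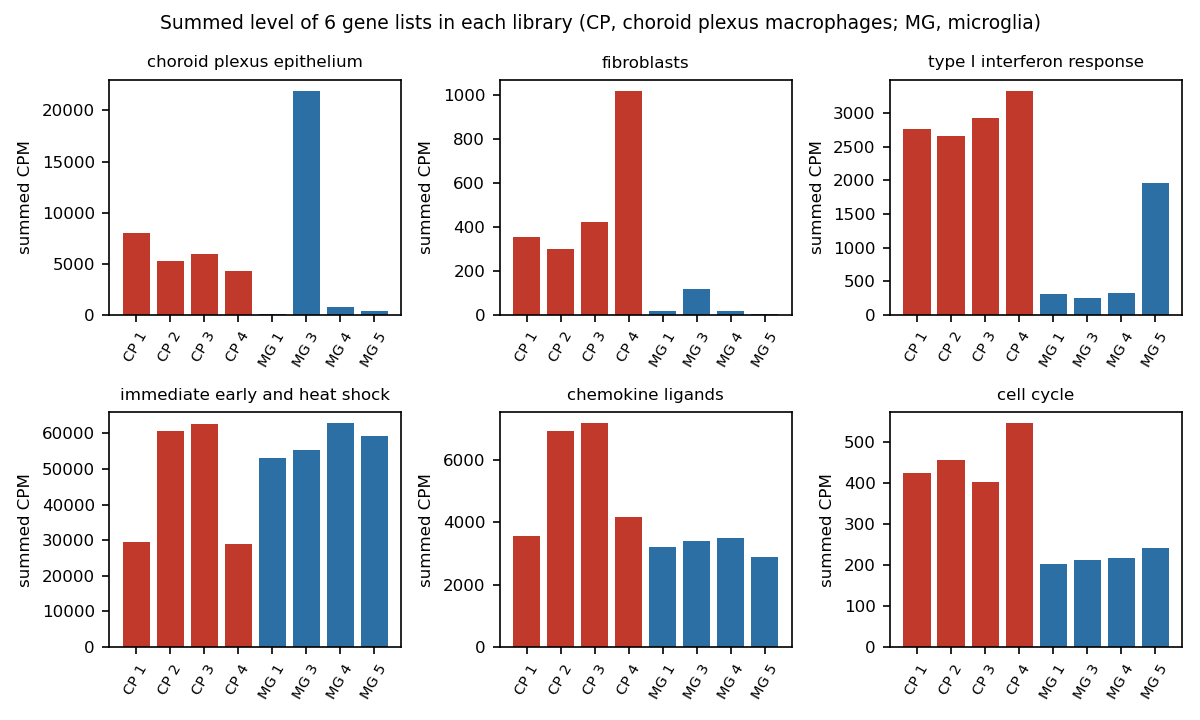
Summed level in CPM of 6 gene lists in each library, with choroid plexus macrophages 1 to 4 (CP, red) left of microglia 1, 3, 4 and 5 (MG, blue). Microglia 3 reached 21889 CPM of epithelial genes, choroid plexus macrophages 4 reached 1017 CPM of fibroblast genes, and microglia 5 reached 1956 CPM of interferon-induced genes.

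The labels were first checked with 4 marker genes. Apoe (chromosome 7, 19696109 to 19699188 in mm10), the lipid carrier apolipoprotein E, was at 41392, 44989, 47177 and 40998 CPM in choroid plexus macrophages, against 1074, 1114, 1154 and 775 CPM in microglia. Cd74 (chromosome 18, 60803848 to 60812652), the invariant chain that chaperones class II molecules, was at 25468, 30005, 36341 and 29271 CPM in choroid plexus macrophages, against 94.9, 146, 101 and 92.03 CPM in microglia. Both genes were higher in every choroid plexus library than in every microglia library. Tmem119 (chromosome 5, 113793729 to 113800516), a membrane protein typical of microglia, was at 888, 874, 974 and 778 CPM in choroid plexus macrophages, against 6124, 4374, 5606 and 5839 CPM in microglia. Sall1 (chromosome 8, 89027235 to 89044162) was at 0.0739, 0, 0.0677 and 0.0635 CPM in choroid plexus macrophages, against 483, 272, 355 and 441 CPM in microglia. Both were lower in every choroid plexus library, and Tmem119 was still well above the floor of 3 counts there, whereas Sall1 had 3 counts over all 4. In edgeR, Apoe had a log2 fold change of 5.41 ± 0.18 (adjusted p = 5.73e-15), Cd74 of 8.13 ± 0.56 (1.9e-09) and Tmem119 of −2.64 ± 0.21 (3.74e-09). For Sall1, microglia had 7615 times the CPM of choroid plexus macrophages, with a 95% counting interval of 2605 to 36928. Without microglia 3 the log2 fold changes were 5.38 for Apoe, 8.23 for Cd74 and −2.80 for Tmem119, and the ratio for Sall1 was 8369.9.

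Of 13960 genes tested in edgeR, 2687 were called (19.2%), with 1695 higher (12.1%) and 992 lower (7.11%). The libraries of the groups did not overlap in 6287 genes (45%). More than 16-fold differences were called for 362 genes higher and 148 lower. Without microglia 3, 3370 of 14156 genes were called (23.8%), with 2282 higher (16.1%) and 1088 lower (7.69%). Both fits called 2525 genes in the same direction, 162 were called only with all libraries and 845 only without microglia 3. The median log2 fold change of all tested genes was 0.09, and 0.06 without microglia 3.

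**Figure D2:**
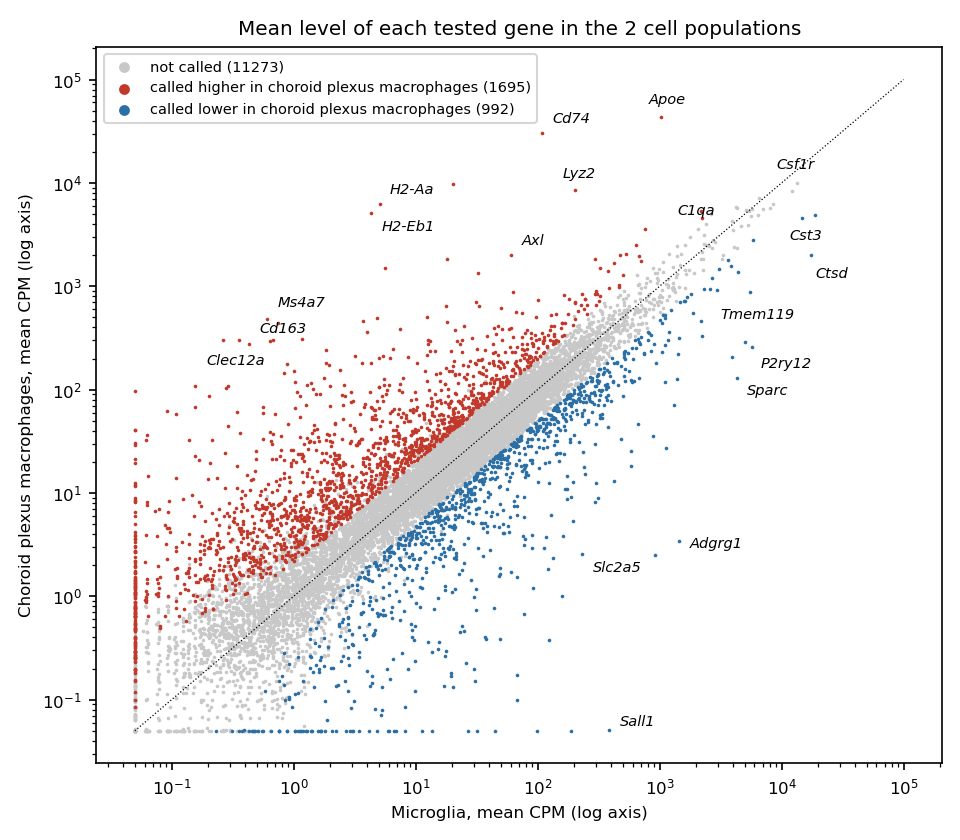
Mean CPM of each tested gene in choroid plexus macrophages (vertical, log axis) against microglia (horizontal, log axis), with the 1695 genes called higher in red, the 992 called lower in blue and the others in grey; means under 0.05 CPM are drawn at 0.05. Cd74, H2-Aa and H2-Eb1 lie far above the dotted line of equal levels, Sall1 and Adgrg1 far below it, and C1qa close to it.

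Measured as a difference of mean CPM, the 10 genes with the largest rise included Apoe, Cd74, the class II genes H2-Aa, H2-Ab1 and H2-Eb1, and Lyz2, which encodes lysozyme of phagocytes. Lyz2 was at 7956, 9080.0, 9519 and 7442 CPM in choroid plexus macrophages, against 232, 171, 208 and 202 CPM in microglia. The receptor tyrosine kinase Axl, which binds dying cells through the bridging protein Gas6, was at 2154, 2012, 2055 and 1799 CPM in choroid plexus macrophages, against 63.99, 40.7, 51.3 and 88.5 CPM in microglia. Ctsc, a protease that activates granule enzymes, averaged 3606 ± 136 CPM in choroid plexus macrophages and 755 ± 131 CPM in microglia. In all of these the groups did not overlap, with log2 fold changes in edgeR of 5.38 ± 0.17 (adjusted p = 4.53e-15) for Lyz2, 5.04 ± 0.42 (2.38e-08) for Axl and 2.26 ± 0.13 (2.13e-11) for Ctsc. The iron storage subunit Fth1 was at the edge of the fold threshold, at 1.05 ± 0.11 with 4612 ± 559 against 2221 ± 288 CPM, and its call was lost with RLE scaling, in DESeq2, in the 8 libraries alone and without choroid plexus macrophages 3, microglia 1 or microglia 5 (lowest log2 fold change 0.91).

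The 10 genes with the largest fall by the same measure included the secreted protease inhibitor Cst3, the aspartic protease Ctsd and the ADP receptor P2ry12. Cst3 was at 4608, 4992, 5451 and 4360.3 CPM in choroid plexus macrophages, against 19100.3, 16853, 20539 and 17988 CPM in microglia. P2ry12, through which microglial processes sense ATP breakdown products, was at 253, 283, 256 and 242 CPM in choroid plexus macrophages, against 6654, 4905, 5947 and 5605 CPM in microglia. Sparc, a secreted matrix protein, was at 103, 81.03, 109.7 and 220.4 CPM in choroid plexus macrophages, against 4696, 3699, 4678 and 4167 CPM in microglia. In these 3 genes every choroid plexus library was lower than every microglia library. Their log2 fold changes in edgeR were −1.94 ± 0.09 (adjusted p = 6.87e-13), −4.48 ± 0.17 (4.12e-14) and −5.07 ± 0.39 (7.92e-09). Ctsd averaged 2003 ± 213 CPM in choroid plexus macrophages and 17436 ± 1819 CPM in microglia, but exons of other annotated genes cover 34.4% of its exon length, so the value is uncertain.

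Some abundant genes had like levels in both groups. The 3 chains of C1q, which starts the classical complement cascade, were among the 6 most abundant genes whose 95% interval lay within 0.5 of no change on the log2 scale. C1qa was at 4045, 4040.4, 4531 and 4488 CPM in choroid plexus macrophages, against 4088, 3319, 4098 and 4176 CPM in microglia. The interval of its log2 fold change was −0.09 to 0.34, that of C1qb −0.28 to 0.18 and that of C1qc −0.24 to 0.20. The other 3 were Itm2b, Serinc3 and Unc93b1, and Unc93b1 carries nucleic acid sensing Toll-like receptors to the endosome. Csf1r, the receptor on which both kinds of macrophage depend, was at 10625, 10126, 9832 and 8944 CPM in choroid plexus macrophages, against 15945, 10612, 12757 and 14089 CPM in microglia, and the groups overlapped through microglia 3.

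**Figure D3:**
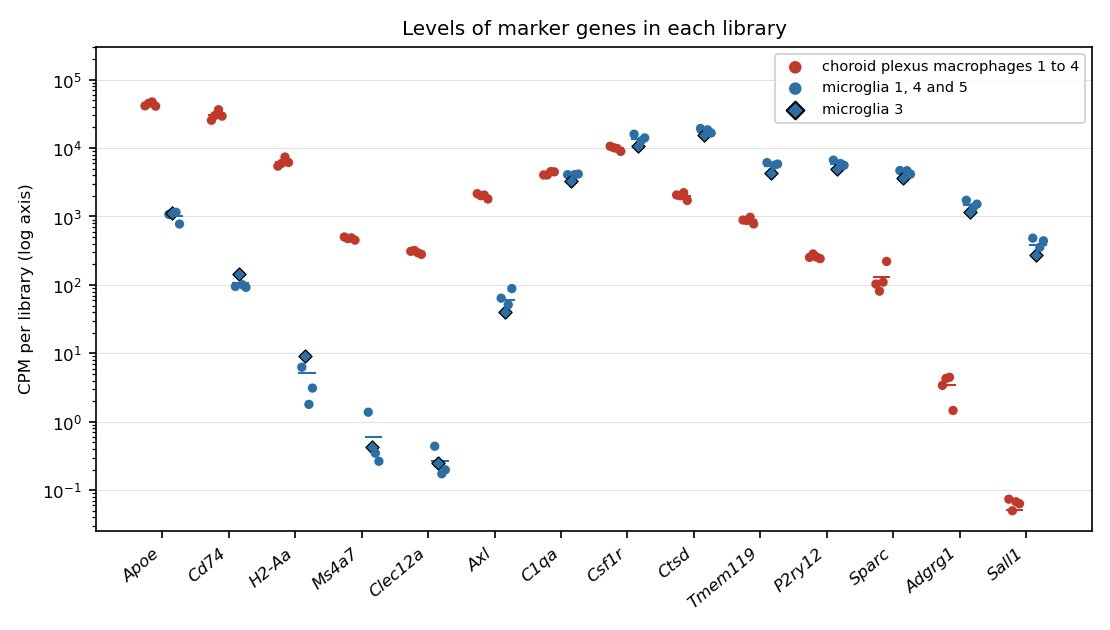
CPM (log axis) of 14 genes in each library, with choroid plexus macrophages 1 to 4 in red left of microglia in blue, microglia 3 as a black-edged diamond and group means as bars; values under 0.05 CPM are drawn at 0.05. Apoe to Axl are higher in every choroid plexus library, C1qa and Csf1r overlap, and Ctsd to Sall1 are lower.

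The identity genes of each population were taken as lists chosen with earlier results of these data known, so their directions are no independent support for the labels. In the list of microglia identity genes, 17 of its 20 tested genes were lower and 3 were not called (18 lower without microglia 3), with a median log2 fold change of −3.59. Of all tested genes, 7.11% were lower. Adgrg1, an adhesion receptor, was at 3.40, 4.29, 4.47 and 1.46 CPM in choroid plexus macrophages, against 1725, 1182, 1369.6 and 1515 CPM in microglia, and the fructose transporter Slc2a5 averaged 2.49 ± 0.544 CPM in choroid plexus macrophages and 921 ± 109 CPM in microglia. Both were lower in every choroid plexus library (log2 fold change −8.73 ± 0.40, adjusted p = 1.03e-10 for Adgrg1 in edgeR). The fractalkine receptor Cx3cr1 was nearer to the fold threshold and averaged 2811 ± 292 CPM in choroid plexus macrophages and 5816 ± 677 CPM in microglia (log2 fold change −1.05 ± 0.16, adjusted p = 2.66e-05 in edgeR), and its call was lost without choroid plexus macrophages 4 (−0.99). The Fc receptor-like gene Fcrls, at 2015 ± 71.1 against 3294 ± 370.4 CPM, and the integrin subunit Itgb5, at 1819 ± 153 against 3236 ± 617 CPM, were not called, although Itgb5 was called lower without microglia 3 (log2 fold change −1.002, adjusted p = 0.000298 in edgeR).

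In the list of border macrophage identity genes, 20 of its 20 tested genes were higher, with a median log2 fold change of 5.19. Of all tested genes, 12.1% were higher. Ms4a7, a membrane protein of the CD20 family, was at 502, 475, 487 and 451 CPM in choroid plexus macrophages, against 1.38, 0.432, 0.347 and 0.264 CPM in microglia. Cd163, which takes up haemoglobin bound to haptoglobin, was at 294, 296, 279.8 and 246 CPM in choroid plexus macrophages, against 1.19, 0.247, 0.232 and 0.0661 CPM in microglia. Both genes were higher in every choroid plexus library, and so were F13a1, the A subunit of coagulation factor XIII (442 ± 53.4 against 0.748 ± 0.766 CPM), and the carbonyl reductase Cbr2 (293 ± 13.6 against 0.639 ± 0.401 CPM). In edgeR the log2 fold changes were 9.62 ± 0.31 (adjusted p = 8.71e-15) for Ms4a7 and 9.31 ± 0.34 (4.12e-14) for Cd163. The scavenger receptor Stab1 was higher too, at 1820.4 ± 345 against 298 ± 87.7 CPM and a log2 fold change of 2.61 ± 0.23.

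**Figure D4:**
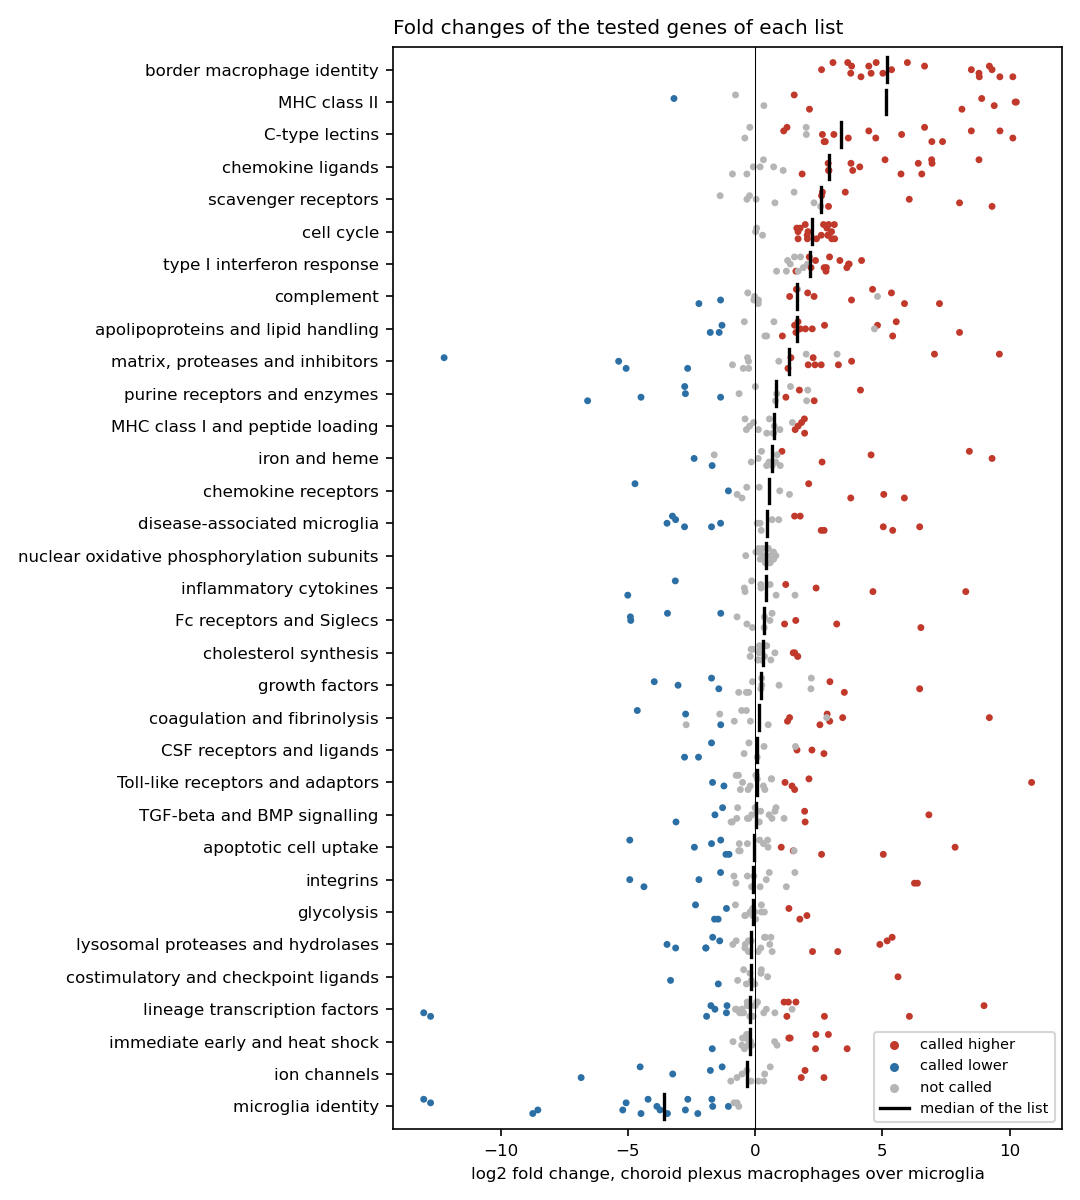
Log2 fold change of choroid plexus macrophages over microglia for each tested gene of the lists of macrophage genes, ordered by list median (black bar), with genes called higher in red, called lower in blue and not called in grey; fitted values of genes with 0 to 3 counts in a group are drawn as fitted and are no bounds. Medians run from 5.19 for border macrophage identity to −3.59 for microglia identity.

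Genes of MHC class II presentation were higher in choroid plexus macrophages, with exceptions. Of the tested genes of this list, 7 of 10 were higher and 1 was lower, with a median log2 fold change of 5.13. H2-Aa, the alpha chain of the class II molecule I-A, was at 5448, 5954, 7393 and 6152 CPM in choroid plexus macrophages, against 6.27, 9.13, 1.79 and 3.11 CPM in microglia. Ciita, the activator of class II transcription, was at 82.6, 101, 130.0 and 118 CPM in choroid plexus macrophages, against 0.501, 0, 0.116 and 0 CPM in microglia. H2-Eb1, the beta chain of I-E, averaged 5146 ± 757 CPM in choroid plexus macrophages and 4.32 ± 3.03 CPM in microglia, and H2-Ab1, the beta chain of I-A, 9674 ± 1335 against 20.2 ± 5.97 CPM. The groups did not overlap in any of these genes (log2 fold change 10.26 ± 0.71, adjusted p = 3.34e-09 for H2-Aa and log2 fold change 9.39 ± 0.89, adjusted p = 2.29e-07 for Ciita, in edgeR). H2-Oa, part of the molecule that restrains peptide loading, was instead lower, at 4.22 ± 0.545 against 38.5 ± 4.42 CPM (log2 fold change −3.19 ± 0.28, adjusted p = 9.65e-09 in edgeR), with 22.8% of its exon length shared with other genes. Its partner H2-Ob was not called, at 28.4 ± 2.65 against 48.4 ± 6.41 CPM, nor was H2-DMb2, at 5.40 ± 0.620 against 4.25 ± 1.04 CPM. The H2 genes are close relatives, and counting may have split their reads.

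In the class I presentation list 5 of its 17 tested genes were higher, against 12.1% of all tested genes. The other 12 were not called, and the median log2 fold change was 0.73. The class I heavy chains H2-K1 and H2-D1 averaged 2483 ± 228 against 644 ± 265 CPM and 2045 ± 137 against 534 ± 185 CPM in choroid plexus macrophages and microglia, and the peptide transporter subunit Tap1 339.5 ± 56.1 against 95.8 ± 43.8 CPM. The common light chain B2m, at 3963 ± 416 against 2387 ± 697 CPM, was not called. Without microglia 5, 8 genes of the list were called higher. Among 12 tested costimulatory and checkpoint genes, 1 was higher and 2 were lower, against 12.1% and 7.11% of all tested genes. Cd40, through which T cells activate presenting cells, was higher (32.1 ± 0.976 against 0.649 ± 0.238 CPM). Havcr2, which encodes TIM-3, was lower (29.7 ± 4.13 against 297 ± 23.2 CPM), and so was 4632428N05Rik (log2 fold change −1.45). Cd86 was not called, at 365 ± 21.8 against 368 ± 55.01 CPM.

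Transcription factors went both ways. Of 32 lineage factors, 7 were higher and 7 lower, against 12.1% and 7.11% of all tested genes. Leaving out microglia 3 gave 6 higher and 7 lower, against 16.1% and 7.69%. Runx3, a factor of lymphocytes and of some tissue macrophages and dendritic cells, was at 44.8, 61.1, 53.8 and 72.9 CPM in choroid plexus macrophages, against 0.313, 0.0617, 0.0579 and 0 CPM in microglia. Pparg, a lipid-activated nuclear receptor, was at 14.6, 15.95, 10.97 and 13.6 CPM in choroid plexus macrophages, against 0, 0.555, 0.174 and 0.0661 CPM in microglia. Both were higher in every choroid plexus library (log2 fold change 8.99 ± 0.44, adjusted p = 1.52e-12 for Runx3 and log2 fold change 6.06 ± 0.52, adjusted p = 1.09e-08 for Pparg, in edgeR). Sall3, a relative of Sall1, had 1 count in all choroid plexus libraries together, and averaged 187 ± 34.1 CPM in microglia. Ets1 was lower, at 63.9 ± 4.41 against 239 ± 18.04 CPM. The Krüppel-like factors Klf2 and Klf6 were not called, at 2395 ± 1057 against 4089 ± 781 CPM and 1832 ± 642 against 2268 ± 376 CPM, and Klf2 was called lower without choroid plexus macrophages 3 (log2 fold change −1.10).

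TGF-beta signalling genes had 3 of 22 tested genes higher and 3 lower, against 12.1% and 7.11% of all tested genes. Leaving out microglia 3 gave 6 higher and 4 lower, against 16.1% and 7.69%. The number lower was 5 without microglia 4. The receptor Tgfbr1 was lower, at 948 ± 146 against 2298 ± 448 CPM, and so were the signal transducer Smad3 (54.2 ± 4.06 against 162 ± 25.7 CPM) and the inhibitor Smad7 (43.5 ± 4.31 against 375 ± 77.3 CPM), whose transcription TGF-beta itself induces. Smad7 had a log2 fold change of −3.11 ± 0.35 (edgeR adjusted p = 1.08e-06). Tgfbr2, the partner receptor, was not called, at 1070.3 ± 88.8 against 955 ± 170.4 CPM. The ligand Bmp2 was higher, at 93.5, 138, 163 and 78.3 CPM in choroid plexus macrophages, against 0.251, 1.17, 1.39 and 1.32 CPM in microglia, with no overlap (log2 fold change 6.83 ± 0.43, adjusted p = 4.99e-10 in edgeR).

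Growth factor genes had 3 of 17 tested genes higher and 4 lower (6 higher and 4 lower without microglia 3), against 12.1% and 7.11% of all tested genes. Without microglia 3 those shares of all genes were 16.1% and 7.69%. The insulin-like growth factor Igf1 was at 98.04, 95.9, 98.97 and 86.6 CPM in choroid plexus macrophages, against 1.32, 1.11, 1.10 and 0.727 CPM in microglia, and every choroid plexus library was higher (log2 fold change 6.47 ± 0.35, adjusted p = 2.28e-11 in edgeR). Hgf, hepatocyte growth factor, was also higher (14.7 ± 2.69 against 1.29 ± 0.431 CPM), while the EGF receptor ligand Tgfa was lower (12.6 ± 2.85 against 197 ± 23.6 CPM). Of the CSF genes, the ligand Csf1 was lower, at 23.96 ± 4.02 against 164 ± 35.2 CPM, as was the G-CSF receptor Csf3r, at 124 ± 11.1 against 579 ± 68.8 CPM, and the GM-CSF receptor subunit Csf2ra was higher, at 243 ± 23.3 against 77.6 ± 8.71 CPM.

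Purine receptors and enzymes had 4 of 16 tested genes higher and 5 lower, against 12.1% and 7.11% of all tested genes. Leaving out microglia 3 gave 7 higher and 5 lower, against 16.1% and 7.69%. Besides P2ry12, P2ry13 was lower (333 ± 24.6 against 2221 ± 322 CPM), as was the adenosine receptor Adora3 (0.389 ± 0.222 against 37.7 ± 8.13 CPM, with 20.9% of its exon length shared with other genes). The ATP-gated channel P2rx4 was higher (247 ± 21.4 against 73.9 ± 12.2 CPM), and P2rx7 was not called, at 286 ± 34.2 against 283 ± 50.6 CPM. Toll-like receptor genes had 5 of 20 tested genes higher and 2 lower, against the same 12.1% and 7.11%. The lipoprotein sensor Tlr2 was higher (837 ± 105 against 306 ± 24.2 CPM), with Cd14, a co-receptor for lipopolysaccharide (1974 ± 364 against 672 ± 53.4 CPM), and the sensor of double-stranded RNA Tlr3 was lower (38.7 ± 4.04 against 123 ± 44.1 CPM).

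C-type lectins, receptors for sugars and other ligands, had 16 of 20 tested genes higher and a median log2 fold change of 3.38 (2.93 with genes at 0 to 3 counts placed at their bound). Mgl2, a receptor for galactose-type sugars, was at 102, 91.97, 107 and 132 CPM in choroid plexus macrophages, against 0.188, 0.370, 0.405 and 0.198 CPM in microglia, with no overlap. Clec5a was not called, at 117 ± 7.05 against 135 ± 19.2 CPM. Among Fc receptors and Siglecs, which bind antibodies and sialic acid, 4 of 15 were higher and 4 lower, against 12.1% and 7.11% of all tested genes. Siglec1, sialoadhesin of tissue macrophages, was at 370.0, 363, 346 and 374 CPM in choroid plexus macrophages, against 1.25, 1.54, 3.01 and 10.2 CPM in microglia, and Siglech at 110.2, 147, 142 and 108 CPM in choroid plexus macrophages, against 1398, 1210.5, 1444 and 1458 CPM in microglia. The groups were apart in both, in opposite directions (log2 fold change 6.51 ± 0.87, adjusted p = 1.18e-05 for Siglec1 and log2 fold change −3.44 ± 0.19, adjusted p = 1.12e-11 for Siglech, in edgeR). Of 17 ion channels, 3 were higher and 5 lower, against 12.1% and 7.11% of all tested genes. Leaving out microglia 3 gave 3 higher and 6 lower, against 16.1% and 7.69%. Trpv4, among the 3 higher with all libraries, lost its call in the 8 libraries alone. It also lost its call without choroid plexus macrophages 1 or microglia 1, 4 or 5 (lowest log2 fold change 1.46). The potassium channel Kcnk12 fell to 0.681 ± 0.364 CPM in choroid plexus macrophages, against 77.95 ± 11.9 CPM in microglia.

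Chemokine ligands had 14 of 21 tested genes higher (13 higher and 1 lower without microglia 3) and a median log2 fold change of 2.90. Ccl7, which attracts monocytes, was at 279.6, 574, 659 and 330.3 CPM in choroid plexus macrophages, against 2.82, 2.90, 5.90 and 3.17 CPM in microglia, and Pf4, a chemokine of platelets and macrophages, at 293, 286, 333 and 309.9 CPM in choroid plexus macrophages, against 1.07, 0.555, 0.579 and 0.529 CPM in microglia. Neither overlapped (log2 fold change 6.95 ± 0.53, adjusted p = 1.08e-08 for Ccl7 and log2 fold change 8.80 ± 0.38, adjusted p = 7.1e-13 for Pf4, in edgeR). Ccl3 and Ccl4 were not called, at 1197 ± 602 against 953 ± 86.2 CPM and 1317 ± 678 against 1647 ± 171 CPM. The summed level of the list was 3573, 6951, 7179 and 4189.6 CPM in choroid plexus macrophages, against 3223, 3412, 3517 and 2902 CPM in microglia. Immediate early and heat shock genes summed to 29624, 60538, 62611 and 28856 CPM in choroid plexus macrophages, against 53033, 55432, 62766 and 59271 CPM in microglia. Choroid plexus macrophages 2 and 3 were the higher pair in both sums, and the part of the one in the other was not tested.

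The interleukin-1 genes went in opposite directions. Il1b was at 263, 575, 662 and 301 CPM in choroid plexus macrophages, against 26.5, 14.6, 16.2 and 15.4 CPM in microglia. Il1a was at 8.20, 28.6, 18.6 and 17.3 CPM in choroid plexus macrophages, against 468, 715, 556 and 598 CPM in microglia. All choroid plexus libraries were higher in Il1b and lower in Il1a (log2 fold change 4.63 ± 0.41, adjusted p = 7.39e-08 for Il1b and log2 fold change −5.002 ± 0.43, adjusted p = 4.09e-08 for Il1a, in edgeR). Tnf overlapped, at 120.4, 414, 312 and 179.9 CPM in choroid plexus macrophages, against 229, 210.1, 220.4 and 215 CPM in microglia, and was not called. Of 14 cytokine genes, 4 were higher and 2 lower, and their sum was 573, 1336, 1383 and 743 CPM in choroid plexus macrophages, against 1031, 1224, 1066 and 1147 CPM in microglia, again highest in choroid plexus macrophages 2 and 3. The chemokine receptors Ccr2, of monocytes, and Cxcr4 were higher, at 87.6 ± 25.3 against 2.64 ± 0.717 CPM and 32.9 ± 10.6 against 0.564 ± 0.270 CPM.

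Of the immediate early and heat shock genes, 6 of 20 were higher and 1 was lower, against 12.1% and 7.11% of all tested genes. The number lower was 2 without choroid plexus macrophages 2 or 3 or without microglia 1. The inducible chaperone Hspa1b was at 134, 356, 206 and 255 CPM in choroid plexus macrophages, against 32.7, 14.1, 13.9 and 16.8 CPM in microglia, and Egr2, an early response factor, averaged 551 ± 256 CPM in choroid plexus macrophages and 74.8 ± 11.2 CPM in microglia. Both were higher without overlap. Atf3, a stress-induced factor, was lower (1377 ± 745 against 4424 ± 1007 CPM, log2 fold change −1.68 ± 0.31, adjusted p = 0.000199 in edgeR), and Fos and Jun were not called, at 8420.2 ± 3492 against 12130.5 ± 1383 CPM and 6311 ± 2433 against 8440.2 ± 755 CPM.

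Of 18 complement genes, C1q among them, 9 were higher and 2 lower (10 higher and 2 lower without microglia 3), and 1 was lower without choroid plexus macrophages 3. C4b, a component of the classical pathway, was at 474, 447, 584 and 525 CPM in choroid plexus macrophages, against 7.96, 4.69, 8.57 and 28.5 CPM in microglia. The groups did not overlap (log2 fold change 5.36 ± 0.50, adjusted p = 1.19e-07 in edgeR), nor did they for properdin, Cfp (10.8 ± 2.26 against 0.438 ± 0.162 CPM). Itgam, a subunit of complement receptor 3, was lower (313 ± 40.4 against 1445 ± 282 CPM), but 68.7% of its exon length is shared with other genes.

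Genes for the uptake of dying cells went both ways: in the list, 5 of its 20 tested genes were higher, 6 lower and 9 were not called (7 higher and 6 lower without microglia 3), with a median log2 fold change of −0.06. The median ranged from −0.31 to −0.005 with 1 library left out, and was −0.29 without microglia 5. Of all tested genes, 12.1% were higher and 7.11% lower, and without microglia 3 16.1% and 7.69%. Axl, given above, was higher, whereas Mertk, a related receptor, was at 139.9, 134, 131 and 113 CPM in choroid plexus macrophages, against 739.8, 574, 631 and 764 CPM in microglia, lower in every choroid plexus library (log2 fold change −2.39 ± 0.12, adjusted p = 2.63e-12 in edgeR). Of their bridging ligands, Gas6 was higher (859 ± 28.3 against 304 ± 86.004 CPM) and Pros1, protein S, lower (251 ± 15.6 against 640.1 ± 104 CPM). Trem2, a lipid receptor of microglia, was also lower (364 ± 5.95 against 1192 ± 106 CPM), while its signalling adaptor Tyrobp was not called (435 ± 34.6 against 411 ± 50.5 CPM).

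Scavenger receptors had 7 of 15 tested genes higher (9 higher without microglia 3). Cd36, which binds fatty acids and oxidised lipoproteins, was at 299, 321, 276 and 334 CPM in choroid plexus macrophages, against 2.13, 0.432, 0.579 and 1.59 CPM in microglia, and Msr1 averaged 211 ± 11.9 CPM in choroid plexus macrophages and 3.17 ± 1.02 CPM in microglia, both without overlap. Among lipid genes, 12 of 20 were higher and 3 lower (11 higher and 3 lower without microglia 3), with the phospholipid transfer protein Pltp higher (387 ± 38.7 against 58.4 ± 37.8 CPM) and the cholesterol exporter Abcg1 lower (43.7 ± 4.70 against 116 ± 9.38 CPM). Iron genes had 5 of 17 tested genes higher and 2 lower, against 12.1% and 7.11% of all tested genes. The exporter ferroportin, Slc40a1, was at 55.4, 47.3, 40.01 and 44.1 CPM in choroid plexus macrophages, against 282, 184, 265 and 252 CPM in microglia, lower in every choroid plexus library (log2 fold change −2.40 ± 0.23, adjusted p = 7.6e-08 in edgeR), and the transferrin receptor Tfrc was lower too (7.72 ± 2.01 against 24.8 ± 5.47 CPM). Ceruloplasmin, Cp, which oxidises iron, was higher (206 ± 30.5 against 8.74 ± 4.92 CPM).

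Lysosomal genes had 5 of 25 tested genes higher and 6 lower, against 12.1% and 7.11% of all tested genes. With microglia 3 left out, 5 were higher and 7 lower, against 16.1% and 7.69%. Ctse, an aspartic protease of antigen-presenting cells, was higher (21.4 ± 3.13 against 0.711 ± 0.0891 CPM). Ctsb and Ctss were not called (5689 ± 247 against 4284 ± 345 CPM and 4876 ± 298 against 6377 ± 830.2 CPM). Matrix genes had 10 of 22 tested genes higher and 4 lower. Adamts1, a protease of proteoglycans, was at 25.6, 29.3, 35.5 and 19.6 CPM in choroid plexus macrophages, against 1249, 1095, 1086 and 1088 CPM in microglia, lower without overlap (log2 fold change −5.36 ± 0.43, adjusted p = 1.2e-07 in edgeR), and Tgfbi, an adhesive matrix protein, was higher (876 ± 92.9 against 63.2 ± 15.9 CPM). Coagulation genes had 7 of 18 tested genes higher and 3 lower (8 higher and 3 lower without microglia 3), with thrombomodulin, Thbd, higher (52.1 ± 10.4 against 4.78 ± 1.56 CPM) and the protease inhibitor Serpine2 lower (35.8 ± 17.9 against 887 ± 92.9 CPM). Integrins had 2 of 16 tested genes higher, a share near the 12.1% of all tested genes, and 4 lower, against 7.11%. Without microglia 3, 3 integrins were higher and 5 lower, against 16.1% and 7.69%. The 2 higher with all libraries were Itga4 and Itgal, which bind vascular adhesion molecules (86.2 ± 7.17 against 1.12 ± 0.522 CPM and 58.5 ± 0.913 against 0.701 ± 0.400 CPM). Itgb3 was among those lower (2.95 ± 1.18 against 90.3 ± 20.7 CPM).

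Glycolysis had 3 of 18 tested genes higher and 4 lower, against 12.1% and 7.11% of all tested genes. The glucose transporter Slc2a1 was lower (48.4 ± 3.21 against 146 ± 12.8 CPM) and Slc2a3 higher (29.2 ± 0.914 against 7.12 ± 1.81 CPM). Pfkp was called higher too (log2 fold change 1.76), but lost its call when any 1 library other than microglia 3 was left out (edgeR adjusted p up to 0.127). Cholesterol synthesis had 3 of 18 tested genes higher (4 higher without microglia 3). That is near the 12.1% of all tested genes (16.1% without microglia 3). Its regulator Srebf2 was higher (128 ± 10.7 against 45.2 ± 4.76 CPM). In edgeR 0 of 20 nuclear genes of oxidative phosphorylation were called with all libraries, and likewise 0 in DESeq2 and limma-voom, with 13 at an unadjusted p below 0.05 in edgeR, 12 of them higher. Without microglia 3, 6 were called higher. Their sum was 3066, 2689, 2909 and 2997 CPM in choroid plexus macrophages, against 1979, 3073, 2100.3 and 1906 CPM in microglia, where microglia 3 was highest.

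Cell cycle genes had 19 of 22 tested genes higher and a median log2 fold change of 2.25. Top2a, a topoisomerase of dividing cells, was at 15.6, 18.3, 14.1 and 22.996 CPM in choroid plexus macrophages, against 2.70, 1.42, 2.43 and 3.04 CPM in microglia, and Mki67 averaged 11.2 ± 3.43 CPM in choroid plexus macrophages and 1.85 ± 0.681 CPM in microglia. Both were higher in every choroid plexus library (log2 fold change 2.89 ± 0.43, adjusted p = 2.71e-05 for Top2a and log2 fold change 2.60 ± 0.44, adjusted p = 9.86e-05 for Mki67, in edgeR). The replication factor Pcna was not called, at 70.7 ± 8.41 against 69.6 ± 12.8 CPM, nor was Mcm3, at 78.1 ± 11.9 against 74.97 ± 13.8 CPM.

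Interferon-induced genes summed to 2764, 2656, 2919 and 3323 CPM in choroid plexus macrophages, against 308, 251, 323 and 1956 CPM in microglia. Microglia 5 stood far above the other microglia, yet below every choroid plexus library. With all libraries 13 of 22 genes were called higher. Without microglia 5 the count was 22, and without microglia 3 it was 11. Ifit1, whose promoter is shown above and which was chosen after its values were seen, was at 40.3, 30.8, 42.3 and 47.6 CPM in choroid plexus macrophages, against 3.76, 3.02, 4.34 and 25.96 CPM in microglia (log2 fold change 2.13 ± 0.69, adjusted p = 0.0199 in edgeR, and 1.78 with adjusted p = 0.054 without microglia 3). Oasl1, an antiviral gene, was at 63.5, 53.5, 73.7 and 80.5 CPM in choroid plexus macrophages, against 0.627, 0.987, 2.84 and 10.6 CPM in microglia (log2 fold change 4.18 ± 0.76, adjusted p = 0.000295 in edgeR).

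Lists of genes of other cell types were measured in the same libraries. In edgeR 0 of the 17 epithelial genes were called with all libraries (median log2 fold change 0.14), with 0 at an unadjusted p below 0.05, and DESeq2 called 0 while limma-voom called 16. Without microglia 3, edgeR called all 17 higher (median 3.73). Ttr, the thyroid hormone carrier made by the epithelium, was at 3178, 2079, 2595 and 1936 CPM in choroid plexus macrophages, against 45.003, 9723, 338 and 147 CPM in microglia. Only microglia 3 among microglia was above the choroid plexus libraries. Its log2 fold change was −0.07 with all libraries and 3.72 without microglia 3 (edgeR adjusted p = 0.00271).

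Fibroblast genes summed to 355, 299.6, 421 and 1017 CPM in choroid plexus macrophages, against 16.2, 115, 16.1 and 5.02 CPM in microglia, with choroid plexus macrophages 4 highest. Of 9 tested, 7 were called higher, with a median of 3.92, and 8 without microglia 3, with a median of 8.14. The collagen gene Col1a1 was at 81.05, 62.7, 74.6 and 207 CPM in choroid plexus macrophages, against 0.313, 19.2, 0.405 and 0.132 CPM in microglia. The part of fibroblast RNA in the matrix and growth factor genes named above was not tested.

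Endothelial genes summed to 84.2 to 168 CPM in choroid plexus macrophages and 130.5 to 179 CPM in microglia, and mural genes to 46.1 to 146 CPM in choroid plexus macrophages and 23.1 to 139 CPM in microglia. Ependymal genes summed to 14.7 to 20.8 CPM in choroid plexus macrophages, against 4.07, 57.3, 3.13 and 1.85 CPM in microglia, highest in microglia 3. In the endothelial list 1 of 10 tested genes was higher and 3 were lower, against 12.1% and 7.11% of all tested genes. With microglia 3 left out, 2 were higher and 3 lower, against 16.1% and 7.69%. Egfl7, a protein secreted by endothelium, was higher (19.9 ± 1.83 against 6.79 ± 1.18 CPM, log2 fold change 1.55 ± 0.25, adjusted p = 4.66e-05 in edgeR). Plvap, of the diaphragms of fenestrated vessels, was not called, at 51.6 ± 16.02 against 15.8 ± 20.9 CPM, but was called higher without microglia 3 (log2 fold change 3.19, adjusted p = 0.000236 in edgeR). Cldn5, of the tight junctions of brain vessels, was lower (0.450 ± 0.423 against 23.2 ± 10.9 CPM), as was Vwf, a clotting protein of endothelium (1.09 ± 0.309 against 20.1 ± 12.4 CPM). Astrocyte genes summed to 7.38 to 12.7 CPM in choroid plexus macrophages and 109 to 150.2 CPM in microglia, where the glutamate transporter Slc1a3 made the larger part (1.82 ± 0.586 against 123 ± 22.5 CPM). Of 8 astrocyte genes tested, 1 was lower and 7 were not called (1 higher and 1 lower without microglia 3), with a median log2 fold change of 0.44 (0.17 without microglia 5). Neuronal genes summed to 0.572 to 1.19 CPM in choroid plexus macrophages and 2.65 to 3.82 CPM in microglia, and oligodendrocyte genes to 277 to 331 CPM in choroid plexus macrophages and 183 to 223 CPM in microglia. Of 7 oligodendrocyte genes tested, 1 was higher and 0 lower, a share higher near the 12.1% of all tested genes. The 1 higher was Pdgfra (log2 fold change 3.92), which is also in the fibroblast list. The median log2 fold change of the 7 was −0.71. The part of such RNA in the other results was not tested.

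Of genes that mark other blood cells, Cd4, a T cell co-receptor that some macrophages also carry, was at 94.6, 95.3, 127 and 94.5 CPM in choroid plexus macrophages, against 0.313, 0.309, 0.289 and 0.198 CPM in microglia, higher in every choroid plexus library (log2 fold change 8.50 ± 0.30, adjusted p = 1.5e-14 in edgeR). It was the only gene of the T and NK cell list with enough counts to be tested, and 4 of that list's 10 genes had no count in choroid plexus macrophages. Monocyte genes summed to 664, 1596, 1499 and 649 CPM in choroid plexus macrophages, against 273, 735, 288 and 420.0 CPM in microglia. Of 11 monocyte genes tested, 2 were higher, Ccr2 and Nr4a1, against 12.1% of all tested genes. Nr4a1 is also in the immediate early list. The number higher was 4 without microglia 3, against 16.1%. It was 1 without choroid plexus macrophages 2 or 3 or microglia 1 or 4, where Nr4a1 lost its call. Dendritic cell genes summed to 191 to 209.8 CPM in choroid plexus macrophages and 663 to 863 CPM in microglia, where Fscn1 made the larger part. Of 13 tested, 6 were higher and 2 lower, against 12.1% and 7.11% of all tested genes. Kmo was among those higher (22.7 ± 5.05 against 0.155 ± 0.269 CPM) and Fscn1 among those lower (46.7 ± 2.58 against 666 ± 73.6 CPM). Cd24a was also higher (log2 fold change 2.19, and 1.80 to 4.04 with 1 library left out), but lost its call in the 8 libraries alone. Of 6 B cell genes, 0 were called in edgeR, DESeq2 and limma-voom, with 1 at an unadjusted p below 0.05 in edgeR. The same tools called 0 of 2 neutrophil genes, with 0 at that unadjusted p. Neutrophil genes summed to 0.887 to 1.71 CPM in choroid plexus macrophages and 1.23 to 2.11 CPM in microglia, with 5 of 7 genes of the list at 0 counts in each group. Mast cell genes summed to 3.32 to 5.02 CPM in choroid plexus macrophages and 0.0579 to 2.65 CPM in microglia, and erythroid genes to 0.396 to 6.03 CPM in choroid plexus macrophages and 0 to 0.555 CPM in microglia.

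**Figure D5:**
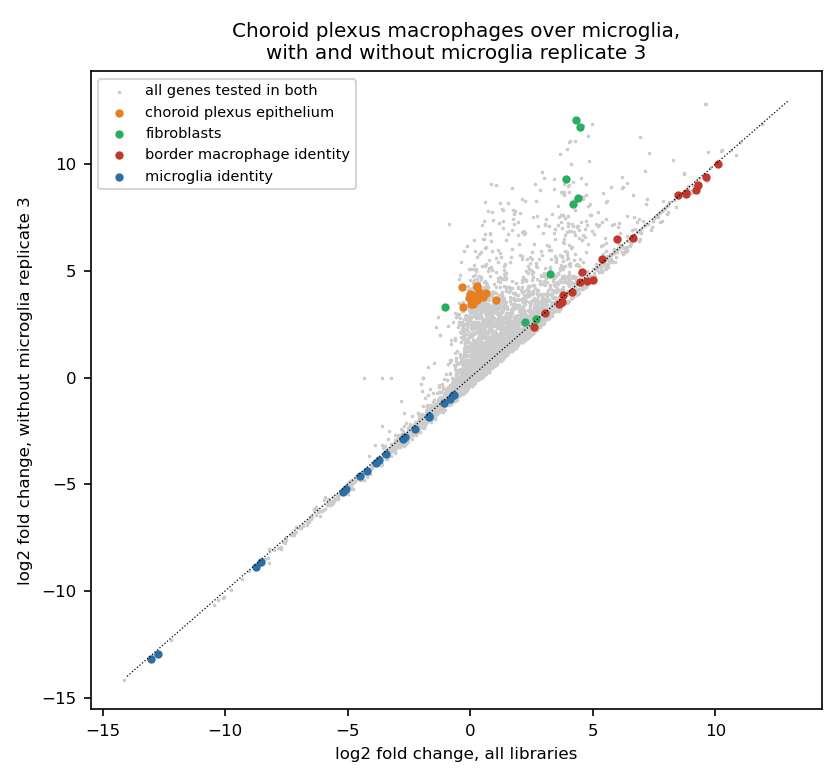
Log2 fold change of choroid plexus macrophages over microglia with all libraries (horizontal) and without microglia 3 (vertical) for each gene tested in both, with 4 lists coloured and a dotted line where both are equal; genes with 0 to 3 counts in a group are drawn as fitted. Identity genes of both populations lie along the line, and the median of the epithelial list is 0.14 with all libraries and 3.73 without microglia 3.

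The named genes were also set against the mean of the log2 levels of both dura groups in the same fit, where 1795 of 13960 genes were called (12.9%), 1243 higher (8.9%) and 552 lower (3.95%) in choroid plexus macrophages. Both comparisons share the choroid plexus libraries. Of the 10 genes with the largest rise in fold over microglia at 100 CPM or more, 4 were higher and 3 lower than this dura mean. The dura groups differ in class II, whose genes summed to 53714 to 60235 CPM in MHC II-high and 2298 to 2519 CPM in MHC II-low dura. In choroid plexus macrophages the sum was 44570 to 62751 CPM. A gene called higher than the dura mean is therefore not shown to exceed MHC II-high dura. The 3 lower genes were F13a1, Cbr2 and Cd163. The log2 fold changes of these 3 against dura were −2.98 ± 0.27 for F13a1 (edgeR adjusted p = 2.58e-07), −1.65 ± 0.23 for Cbr2 (3.56e-05) and −1.64 ± 0.20 for Cd163 (5.76e-06). Cd74 averaged 30271 ± 4509 CPM in choroid plexus macrophages, 30874 ± 1766 CPM in MHC II-high dura and 1581 ± 49.5 CPM in MHC II-low dura. Its means in choroid plexus macrophages and MHC II-high dura differed by less than the SD of either.

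Tmem119 averaged 878 ± 80.1 CPM in choroid plexus macrophages, 224 ± 34.9 CPM in MHC II-high dura and 114 ± 34.5 CPM in MHC II-low dura, and was called higher than in dura (log2 fold change 2.46 ± 0.17, edgeR adjusted p = 2.39e-09). Cx3cr1, lower than in microglia, was also higher than in dura (log2 fold change 1.35 ± 0.14, adjusted p = 4.34e-07 in edgeR). Sall1 averaged 0.0513 ± 0.0344 CPM in choroid plexus macrophages, 0.855 ± 0.491 CPM in MHC II-high dura and 9.92 ± 1.94 CPM in MHC II-low dura. Adgrg1 averaged 3.40 ± 1.38 CPM in choroid plexus macrophages, 1.98 ± 0.855 CPM in MHC II-high dura and 24.1 ± 5.71 CPM in MHC II-low dura.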

How the data were processed

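Per the submitters' processing notes, the authors used mm10, with SAMtools 0.1.18, TopHat2 2.1.0, Trimmomatic 0.38 and FastQC 0.11.4 among their tools. How reads were counted (program, annotation, strand) is not given in the sources used here, so reads of overlapping, antisense or closely related genes cannot be told apart. The deposited values are raw counts per gene symbol, for 24421 symbols, with 5 further lines for reads of no gene that stayed out of library sizes. Reads in no feature made up 7.39–10.5% in choroid plexus macrophages and 12–13.1% in microglia, and ambiguous reads 0.836–1.05% over both.

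The 20 libraries entered 1 fit in edgeR 4.0.16 (R 4.3.3) after filterByExpr, with TMM factors of 0.923–1.05, a robust quasi-likelihood test, 15 residual degrees of freedom and a common biological coefficient of variation of 0.302. P-values were adjusted over all 13960 tested genes. In the text, edgeR means this test. A standard error is the fold change over the square root of F. CPM are counts scaled to 1000000 TMM-adjusted counts, and 3 counts are 0.174–0.222 CPM in 1 library. Where a group held 1 to 3 counts, a ratio with its 95% counting interval replaces the fitted fold. These counting intervals and the floors cover counting error only. The 95% intervals of log2 fold changes come from the fitted standard error and include the spread between libraries. On simulated counts for this comparison, with 13668 genes, 70% of genes changed 2.5-fold and 87% of those changed 4-fold were called, with 2 false calls. The simulation changed 100 genes at each fold, all at a mean of 1 CPM or more. The other genes had equal mean shares in all libraries, and no library carried RNA of other cells. Its false calls are therefore no error rate for the real libraries.

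The members and the 48 gene lists were chosen with earlier results of these data known. Named genes are the 4 markers, then in each direction the 10 called genes with the largest difference of mean CPM and the 10 with the largest fold (mean of at least 100 CPM in the higher group, at least 10 counts in the lower one, no overlap), from each list up to 3 called genes in each direction at 10 CPM or more and the 2 most abundant uncalled ones, and the 6 most abundant genes whose 95% interval lay within 0.5 of no change on the log2 scale. These are 254 genes, of which a part is described and some are not reported here. Ifit1 was added for its promoter after its values were seen. Positions and exon overlaps are from GENCODE M21, which holds 23376 of the symbols and may not be the authors' annotation. Alternatives were DESeq2 1.42.0, limma-voom (limma 3.58.1), RLE scaling, other filters, the 8 libraries alone, a replicate block and each replicate left out. Leaving out microglia 3 and 5 together was added after seeing the data.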

Additional observations from a re-analysis of the deposited data

Results flagged for a closer look

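In each group of 4 libraries, a library was singled out by its gap to the nearest other. The gap had to be a larger share of the group's range than Dixon's 95% critical value for 4 values. The rule covered the summed lists and most of the genes described here. It singled out a library in 37 of 354 groups, and chance alone flags about 1 in 20 groups. Values are in CPM, with the range of the other 3 libraries of the group beside them.

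In choroid plexus macrophages 1, Pros1 was at 274 (241 to 246), Slc2a3 was at 30.6 (28.7 to 28.8) and Vwf was at 1.55 (0.880 to 0.989). In choroid plexus macrophages 3, Cd4 was at 127 (94.5 to 95.3) and the sum of the list T and NK cells was at 127 (94.7 to 95.99). In choroid plexus macrophages 4, Col1a1 was at 207 (62.7 to 81.05), Csf3r was at 108 (128 to 131) and Serpine2 was at 62.6 (25.5 to 29.4). There, the sum of the list purine receptors and enzymes was at 1946 (2128 to 2161) and the sum of the list fibroblasts was at 1017 (299.6 to 421).

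In microglia 1, Adamts1 was at 1249 (1086 to 1095), Cd163 was at 1.19 (0.0661 to 0.247) and Egr2 was at 58.04 (79.5 to 81.7). There, F13a1 was at 1.88 (0.185 to 0.463), Hspa1b was at 32.7 (13.9 to 16.8) and Il1b was at 26.5 (14.6 to 16.2). In the same library, Ms4a7 was at 1.38 (0.264 to 0.432), Pf4 was at 1.07 (0.529 to 0.579) and Tfrc was at 32.97 (21.2 to 22.96). In microglia 3, C1qa was at 3319 (4088 to 4176), C1qb was at 4908 (5918 to 6089) and C1qc was at 4572 (5579.8 to 5672). There, Cd74 was at 146 (92.03 to 101), Col1a1 was at 19.2 (0.132 to 0.405) and Foxj1 was at 24.3 (0.793 to 1.45). In the same library, H2-Oa was at 31.9 (40.2 to 41.5), Plvap was at 47.2 (4.83 to 5.95) and Ttr was at 9723 (45.003 to 338). There, the sum of the list glycolysis was at 3583 (2701 to 2840.0), the sum of the list nuclear oxidative phosphorylation subunits was at 3073 (1906 to 2100.3) and the sum of the list choroid plexus epithelium was at 21889 (73.2 to 757). In the same library, the sum of the list ependymal cells was at 57.3 (1.85 to 4.07) and the sum of the list fibroblasts was at 115 (5.02 to 16.2).

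In microglia 4, Ccl7 was at 5.90 (2.82 to 3.17). In microglia 5, C4b was at 28.5 (4.69 to 8.57), Egfl7 was at 5.02 (7.27 to 7.47) and the sum of the list type I interferon response was at 1956 (251 to 323). No explanation of these values was tested.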

How the results depend on the processing

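Calls numbered 2682 with RLE scaling, 2796 in DESeq2, 3117 in limma-voom, 2677 without a filter, 1891 with a filter at 10 CPM in 4 libraries, 2613 with the 8 libraries alone and 2984 without microglia 3 and 5, against 2687. The genes called higher numbered 1124 with the filter at 10 CPM, which tests fewer genes, against 1695. With the 8 libraries alone, 1408 were higher and 1205 lower, against 1695 and 992, and the median log2 fold change of all tested genes was −0.02 against 0.09. Leaving out 1 replicate gave 2456 to 3370 called, 1466 to 2282 higher and 922 to 1088 lower genes, the highest each time without microglia 3. Replicate numbers are shared by the labels. Deviations from the group means correlated at r = −0.135 for number 1, −0.0205 for 3 and 0.0264 for 4. Pairs with different numbers ranged from −0.238 to 0.27. The group mean of microglia includes microglia 3, and few numbers are shared, so these values cannot show whether same-numbered libraries were paired. With the replicate block, 2553 genes were called, 1644 higher and 909 lower. Number 5 belongs to microglia 5 alone, so the block in effect left that library out of the comparison. Interferon-induced genes called higher then numbered 22 against 13 and class I presentation genes 9 against 5, B2m among those gained. Leaving out microglia 5 instead gave 22 and 8, so the block is no separate check for these lists. Of the 254 named genes, 223 kept their call under every setting in which they were tested. The 10 CPM filter tested 240 of them, the 8 libraries alone 247 and DESeq2 249. Directions reversed for Ttr and the ciliary gene Foxj1: Ttr was at 3.72 without microglia 3 and 3.59 without microglia 3 and 5, and Foxj1 at 2.54 without microglia 3, against −0.07 and −0.11 with all libraries. The cause was not tested. Leaving out 1 replicate, Ttr ranged from −0.50 to 3.72 and Foxj1 from −0.52 to 2.54, the lowest of both without microglia 5. Depth limits genes near 3 counts per library.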

Other observations

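Genes known from disease-associated microglia, a state of microglia near plaques and damage, split in choroid plexus macrophages. Of 18 tested, 7 were higher and 6 lower, with a median log2 fold change of 0.46. Without microglia 3, 9 were higher and 6 lower and the median was 0.97, and without microglia 5 the median was 0.24. Of all tested genes, 12.1% were higher and 7.11% lower, and without microglia 3 16.1% and 7.69%. Apoe, Axl and Igf1 were among those higher. The tetraspanin Cd9 was lower, at 121, 119.8, 113 and 116 CPM in choroid plexus macrophages, against 1170.3, 1072, 1199 and 1019.8 CPM in microglia, without overlap (log2 fold change −3.25 ± 0.14, adjusted p = 1.66e-13 in edgeR). Cd63, another tetraspanin of the list, was not called, at 403 ± 24.1 against 254 ± 62.9 CPM.

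Several further genes had large folds without overlap. Plbd1, a phospholipase B-like protein, averaged 305 ± 7.04 CPM in choroid plexus macrophages and 0.355 ± 0.387 CPM in microglia. Lag3, known as an inhibitory receptor of T cells, averaged 2.92 ± 0.666 CPM in choroid plexus macrophages and 114 ± 8.82 CPM in microglia. Selplg, the ligand of P-selectin, was at 264, 302, 317 and 266 CPM in choroid plexus macrophages, against 5645, 4139, 5042 and 5197 CPM in microglia, and the kinase gene Sgk1 averaged 205 ± 31.9 CPM in choroid plexus macrophages and 3924 ± 205 CPM in microglia. In edgeR the log2 fold changes were 9.72 ± 0.51 (adjusted p = 4.3e-11), −5.28 ± 0.27 (3.63e-11), −4.12 ± 0.20 (1.02e-12) and −4.26 ± 0.17 (4.77e-14).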
